A study of Danio rerio with 12 samples.

Results

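Heat (thermal stress, TS) and stress metabolites (SM, the compounds left in the medium by heat-stressed embryos) were applied to zebrafish embryos alone and together, and the question here was whether the transcriptome of the combined treatment is the sum of the 2 single treatments. The quantity examined was the interaction, that is the difference of differences (TS + SM − TS) − (SM − C), which compares the response to SM under heat with the response to SM at the control temperature and is equal to the response to heat in SM medium minus the response to heat in fresh medium. It uses all 12 libraries of the series, 3 in each of 4 groups, and every one of 18688 genes tested out of 32520 in the count tables. On the log2 scale an interaction log2 fold-change (LFC) of 0 means that the fold changes of the single treatments multiply in the combined treatment. A positive value means that TS + SM embryos held more transcript than this additive expectation, and a negative value that they held less.

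Each library was made from a pool of 20 whole embryos of the AB laboratory strain, incubated singly in tubes for 24 h from the first hours after fertilization and taken at 1 day post fertilization (dpf). TS + SM embryos received medium conditioned by heat-stressed embryos together with 19 cycles of 27, 29, 32, 29 and 27 °C in steps of 15 min. TS embryos had the same cycles in fresh medium, SM embryos had the conditioned medium at a constant 27 °C, and C embryos had fresh medium at 27 °C. Among these libraries the conditioned medium always came from heated donors, so effects of SM and of any medium in which embryos have lived cannot be told apart, and neither can heat and the faster development that heat brings at a fixed age. Libraries held 18764434 to 60239167 reads counted in genes, the deepest being TS + SM pool 1. Of 27 marker symbols for the tissues of a whole embryo 22 were matched, and 20 of them were read in every library, whereas the lens gene *CRYAA* lay at 0 to 10.8 normalized counts. The first principal component, which carried 49.7% of the variance, spread pools within groups: TS + SM pools lay at -75.2, -17.2 and 47.04, TS pools at -21.5, -19.4 and 99.99, SM pools at -39.7, 14.9 and -32.7 and C pools at -38.1, 6.57 and 75.3. TS + SM pool 1, TS pool 3 and C pool 3 were the farthest from 0. The third component, with 9.75% of the variance, separated both heated groups (means -23.3 in TS + SM and -18.2 in TS) from both unheated groups (23.8 in SM and 17.8 in C).

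As background, repeated heat makes cytosolic proteins unfold, and heat shock factors respond by inducing chaperones of the HSP70 and HSP90 families. Warmth also speeds embryonic development, so that at a fixed age the segmentation clock in the tail is nearer to its end and lens and muscle are further differentiated. The embryos were still in their chorion. Of the embryo's own cells, substances from the medium first meet the outer layer, the keratin-rich periderm with its ion-transporting ionocytes, and chemosensory cells. Innate immune sensors such as Toll-like and NOD-like receptors detect foreign or damage-derived molecules. Additivity asks whether such programs run side by side when both stimuli are present.

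No gene departed from additivity at *P*-adj ≤ 0.05 in the quasi-likelihood test of edgeR with Benjamini–Hochberg adjustment (0 of 18688, 0%), and the smallest *P*-adj was 1. At unadjusted *P* ≤ 0.05 there were 171 genes (0.915% of those tested), and at unadjusted *P* ≤ 0.01 there were 23 (0.123%), of which 12 lay above the additive expectation (0.0642%) and 11 below it (0.0589%). Evenly spread *P* values without any interaction would give fractions of 0.05 and 0.01, and both shares in this edgeR fit were smaller than these. In limma-voom with sample weights 1255 of 18688 genes had an unadjusted *P* ≤ 0.05 and 317 an unadjusted *P* ≤ 0.01. Both of these shares were larger than the even fractions, so the comparison depends on the fit. DESeq2 on the same counts called 2 genes at *P*-adj ≤ 0.05, *si:ch211-214b16.2* (LFC 9.01, *P*-adj = 5.41e-05) and *best1* (LFC -5.43, *P*-adj = 0.00331). It gave 50 genes at unadjusted *P* ≤ 0.01 out of 27606 tested, a larger number than in edgeR. Limma-voom with sample weights called 0 at *P*-adj ≤ 0.05 and 317 at unadjusted *P* ≤ 0.01. In the same edgeR fit heat averaged over both media changed 159 genes at *P*-adj ≤ 0.05 (0.851%) and SM averaged over both temperatures changed 0, with 73 genes at unadjusted *P* ≤ 0.01 (0.391%) and 713 at unadjusted *P* ≤ 0.05. The 23 genes therefore serve as a description of the largest departures relative to their error. Their number was 43 without TS + SM pool 1, 12 without TS pool 1, 52 without TS pool 3, 11 without C pool 1, 14 without C pool 2 and 49 without C pool 3.

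The size of departure that these data could resolve depended on expression level. The quartiles of the 18688 interaction LFCs were -0.19 and 0.16, with a median of -0.000939, and their median absolute value was 0.17 against a median standard error (SE) of 0.40. The 95% interval of 8587 genes (45.9%) fell inside -1 to 1, so that a departure of more than 2-fold in either direction lay outside their intervals, and 780 genes (4.17%) had an LFC beyond 1 in absolute value. Among the 4348 genes with a mean of 300 to 1000 normalized counts 80.5% were bounded in this way and among the 2355 genes with 1000 to 3000 counts 86.4%, whereas none of the 871 genes under 10 counts and none of the 3058 genes with 10 to 30 counts were. Median half-widths of the interval were 2.39 under 10 counts and 0.58 at 1000 to 3000 counts. Departures could thus be bounded mainly for abundant transcripts, whereas the intervals of scarce transcripts left room for departures of several fold. Scarce genes were still among the 23, 2 of which had a mean under 10 counts and 6 a mean of 10 to 30.

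**Figure D1:**
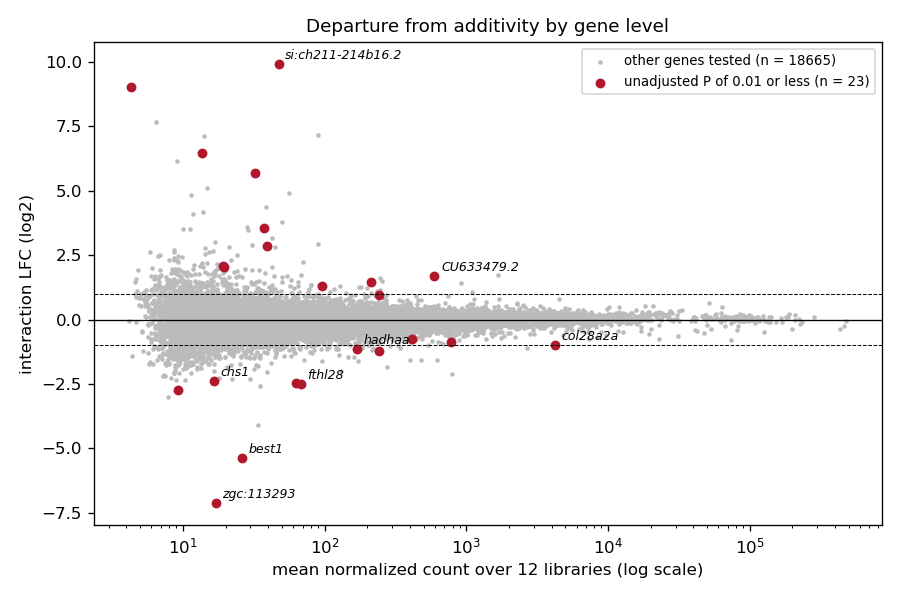
Interaction LFC (vertical axis, log2) of each gene tested against its mean normalized count (horizontal axis, log scale), with the 23 genes at unadjusted *P* ≤ 0.01 marked. The scatter narrows with expression level, and 224 of the 780 genes beyond 1 have a mean under 10 counts, against 0 with a mean of 3000 or more.

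The 23 genes shared a crossed shape. In all 23 the response to SM had opposite signs with and without heat, and in 21 the response to heat had opposite signs with and without SM, whereas over all 18688 genes these numbers were 5893 and 6273. Of the 12 genes above additivity 11 were lower in both single treatments than in C, and of the 11 below additivity 10 were higher in both single treatments than in C. In these 21 genes the combined treatment thus moved the level back in the direction of C from that of either single treatment. This shape is a description, because the same libraries chose the genes. The departure had the same sign on the plain count scale (TS + SM − TS − SM + C) in 23 of 23, against 17809 of all 18688 genes. Opposite signs of the SM response with and without heat fix this outcome in advance, so it adds no further evidence. Just inside the threshold lay ENSDARG00000105407 (unadjusted *P* = 0.00915) and *faub* (unadjusted *P* = 0.00943), and just outside lay *tcima* (unadjusted *P* = 0.0101) and *NTHL1* (unadjusted *P* = 0.0102).

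The largest departure was in *si:ch211-214b16.2* (ENSDARG00000102593), which the study annotates as a likely ortholog of NOD2, an intracellular sensor of bacterial cell-wall fragments. It had 30.5, 70.96 and 132 normalized counts in the TS + SM pools, 13.3, 58.2 and 59.8 in the TS pools, 0, 0 and 0 in the SM pools and 104, 41.8 and 56.9 in the C pools. It was thus read in every pool except the 3 SM pools, and TS + SM pools overlapped with both TS and C pools. Set against the detection limit of 3 counts in every SM library, the level was at least 17.6-fold lower in SM than in C, and TS + SM lay at least 31.3-fold above the additive expectation (an interaction of at least 4.97 on the log2 scale, unadjusted *P* = 9.13e-05). This gene passed *P*-adj for heat averaged over media, and the direction of its heat response differed between media: TS + SM lay at least 20.2-fold above SM, whereas TS against C gave an LFC of -0.63.

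A gene named after the same genomic clone, *si:ch211-214b16.4* (ENSDARG00000074345), had a like pattern. Its levels were 2.99, 32.3 and 160 normalized counts in TS + SM, 10.4, 43.3 and 53.6 in TS, 0, 1.19 and 1.103 in SM and 40.5, 24.3 and 17.7 in C. The SM pools were again the lowest, although TS + SM pool 1, at 2.99, came close to them. The departure was at least 13.02-fold above additivity (at least 3.70 on the log2 scale, unadjusted *P* = 0.0077). Multimapping reads were counted in no gene, so reads that genes of one family share could be lost. These levels are uncertain to that extent. Of the 23 genes 5 had at least 1 group at the detection limit, and 4 of these lay above additivity.

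Among the genes below additivity, *best1* (ENSDARG00000078331), which encodes bestrophin 1, a calcium-activated chloride channel, departed most with every group above the limit. It had 6.58, 11.6 and 4.85 normalized counts in TS + SM, 50.2, 65 and 19.2 in TS, 17.1, 86.9 and 31.98 in SM and 7.09, 9.72 and 1.86 in C. Each single treatment was above C in all 3 pools, and the TS + SM pools overlapped with C. The additive expectation for TS + SM was 326 normalized counts against an observed mean of 7.68, and the interaction LFC was -5.38 (SE 1.04, 95% interval -7.66 to -3.11, unadjusted *P* = 0.000246).

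The ferritin gene *fthl28* (ENSDARG00000076221), a heavy-chain-like member of the iron-storage family, followed the same shape. Its values were 47.9, 77.4 and 46.1 normalized counts in TS + SM, 149.7, 137 and 26.8 in TS, 85.4, 85.7 and 79.4 in SM and 34.5, 20.4 and 26.1 in C. All 3 SM pools lay above all C pools, the TS + SM pools lay between C and SM without overlap, and TS pool 3 was as low as C. The interaction LFC was -2.49 (SE 0.72, unadjusted *P* = 0.00491). *chs1* (ENSDARG00000068515), which encodes a chitin synthase, had 12.6, 11.6 and 9.696 normalized counts in TS + SM, 26.5, 20.3 and 10.99 in TS, 20.2, 25 and 35.3 in SM and 4.05, 13.6 and 8.39 in C, with an interaction LFC of -2.36 (SE 0.71, unadjusted *P* = 0.00625). The SM pools were above all C pools, and the TS + SM pools overlapped with C.

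Better measured were 5 genes below additivity with means over 100 normalized counts. *hadhaa* (ENSDARG00000057128), which encodes the alpha subunit of the mitochondrial trifunctional protein of fatty acid oxidation, had 106, 82.6 and 105 normalized counts in TS + SM, 192, 168 and 179 in TS, 188, 240.4 and 235 in SM and 151, 162 and 232 in C. The 3 TS + SM pools were the lowest of the 12, and the other 3 groups overlapped. Its interaction LFC was -1.15 (95% interval -1.78 to -0.52, unadjusted *P* = 0.00183). *PRKCB* (ENSDARG00000022254), a protein kinase C, had 187, 209 and 193 normalized counts in TS + SM, 336, 381 and 200 in TS, 216, 294 and 328 in SM and 158, 191 and 211 in C (interaction LFC -1.22, 95% interval -1.96 to -0.48, unadjusted *P* = 0.0037). Its TS + SM pools lay inside the range of C, and SM lay above C in every pool.

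The collagen XXVIII gene *col28a2a* (ENSDARG00000076321) had 2640.3, 3587 and 3689.5 normalized counts in TS + SM, 4995, 3927 and 4623 in TS, 4787, 6299 and 5217 in SM and 3459.5, 4668 and 3049 in C. The SM pools were above all C pools and above all TS + SM pools, and the interaction LFC was -0.995 (95% interval -1.61 to -0.38, unadjusted *P* = 0.00415). *si:ch1073-340i21.3* (ENSDARG00000088885) had 604, 743 and 671 normalized counts in TS + SM, 862, 704 and 640.5 in TS, 964, 937 and 1310 in SM and 693, 613 and 614 in C, and its interaction LFC was -0.87 (SE 0.24). Here only SM stood clear of the other groups. *faub*, which encodes a ubiquitin-like protein fused to ribosomal protein S30, had the smallest departure of the 23, with an LFC of -0.74 (SE 0.24). The remaining genes below additivity were *CR318588.3* (LFC -2.45), *zgc:110410* (-2.73) and *zgc:113293*. The TS + SM pools of *zgc:113293* were at the detection limit. Taken at group means, its departure was at most -6.35 on the log2 scale, but the 95% interval of its fitted LFC was -11.7 to -2.50. TS pool 3 and SM pool 1 of this gene also lay low, at 0.687 and 1.55 normalized counts.

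Above additivity, *CU633479.2* (ENSDARG00000103837), which the study annotates as a myosin 7 gene, was the most abundant. It had 571, 641 and 943 normalized counts in TS + SM, 356, 493 and 304 in TS, 368, 601 and 451 in SM and 1007, 801 and 615 in C. Each single treatment lay below C in all pools, while TS + SM overlapped with C. The additive expectation was 225 normalized counts, the observed mean was 3.19 times as high, and the interaction LFC was 1.67 (95% interval 0.85 to 2.50, unadjusted *P* = 0.000855). *zgc:100832* had 286, 182 and 285 normalized counts in TS + SM, 160.1, 203 and 156 in TS, 231, 268 and 205 in SM and 339, 294 and 297 in C, with an interaction LFC of 0.94 (95% interval 0.32 to 1.56, unadjusted *P* = 0.00637). All C pools lay above all other pools of this gene. Less abundant genes above additivity were *si:ch73-264p11.1* (LFC 2.05), *si:ch73-65n21.1* (3.54), *wu:fc75a09* (1.31), ENSDARG00000108060 (1.46), ENSDARG00000109164 (2.87) and ENSDARG00000079681 (2.08). *si:dkey-30k22.8* and ENSDARG00000105407 had groups at the detection limit. Taken at group means, their departures were at least 2.12 and at least 3.75 on the log2 scale. The 95% intervals of their fitted LFCs were 3.94 to 14.11 and 1.93 to 11.02.

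**Figure D2:**
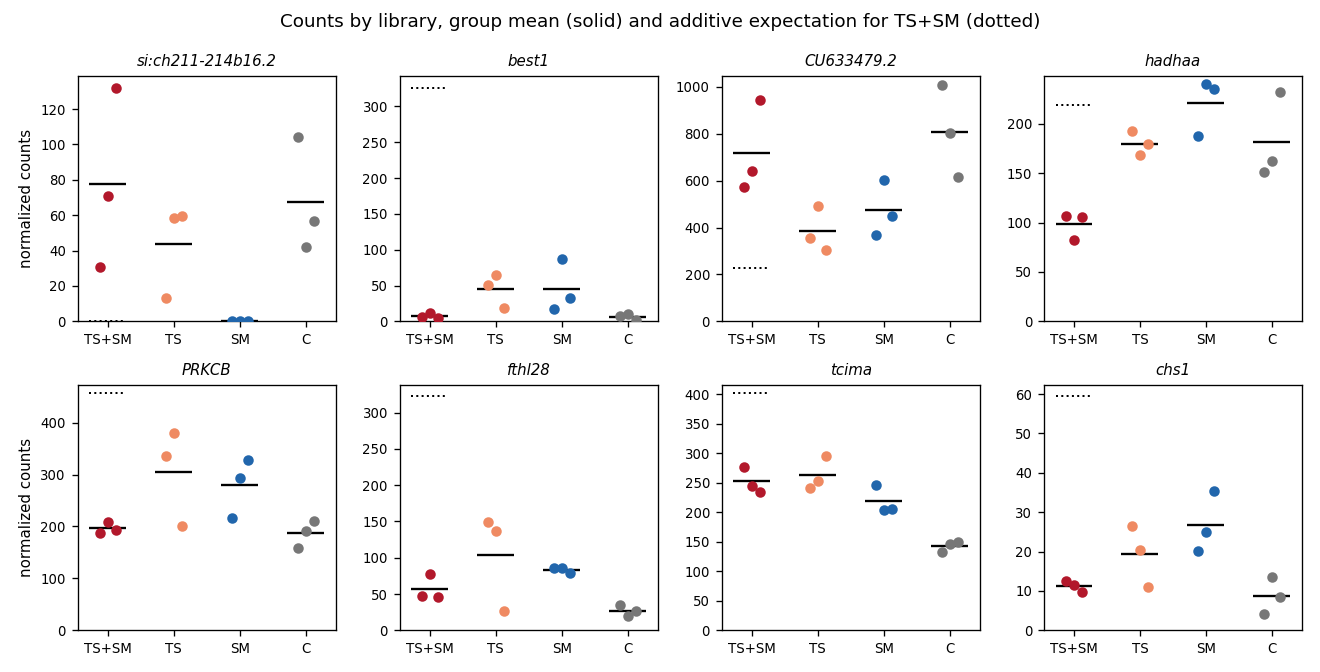
Normalized counts (vertical axes, from 0) of 8 genes in each library of TS + SM, TS, SM and C (left to right), with points for pools of 20 embryos, solid lines for group means and dotted lines for the additive expectation. In *best1* TS and SM lie above C in every pool while TS + SM overlaps with C, in *fthl28* and *chs1* SM lies above C and TS + SM in every pool while TS pool 3 lies within the range of C, and in *si:ch211-214b16.2* the 3 SM pools are at 0.

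The median departure of the heat-responsive genes was close to 0, and further from 0 in the genes lowered by heat than in those raised by it. Heat averaged over both media changed 159 genes at *P*-adj ≤ 0.05, 131 higher (0.701%) and 28 lower (0.15%) under heat. In a balanced design with equal spread in every group, this average is independent of the interaction, and choosing genes by it does not tilt the departure. Equal spread does not hold for genes with a group at the detection limit. *si:ch211-214b16.2* was called through its 0 counts in SM, with an LFC of -0.63 in TS against C. The median LFC of the 159 genes, signed by direction, was 1.11 in SM medium (TS + SM against SM) and 1.07 in fresh medium (TS against C). In 158 of 159 genes both responses had the same direction, which the averaging favours, the exception being *si:ch211-214b16.2*. The interaction LFC, signed so that a positive value means a larger heat response in SM medium, had a median of 0.06 with quartiles of -0.16 and 0.24, and 89 genes lay above 0 and 70 below. For 82 of the 159 genes a departure beyond 1 on the log2 scale lay outside the 95% interval, and 7 had an unadjusted *P* ≤ 0.05, against 171 of all 18688 genes (0.915%). The 131 genes higher under heat had a median of 0.04, with 70 above and 61 below 0, 72 bounded and 3 at unadjusted *P* ≤ 0.05. The 28 genes lower under heat had a median of 0.26, with 19 above and 9 below 0, 10 bounded and 4 at unadjusted *P* ≤ 0.05. The difference between these sets was not tested. With 1 library left out the heat genes were called anew, so the set of genes changed as well. Their median was 0.22 without SM pool 2 (112 genes), and 0.12 without TS + SM pool 2 (95) and without TS + SM pool 3 (152). It was 0.01 without TS + SM pool 1 (115) and without TS pool 1 (89), and 0.0050 without SM pool 1 (77). It was -0.02 without TS pool 2 (98), -0.01 without C pool 1 (100) and -0.0050 without C pool 3 (122).

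Of the cytosolic chaperone list 3 of 25 genes were called for averaged heat, against 0.851% of all genes, with interactions of -0.07 to 0.04. *hsp90aa1.2* (ENSDARG00000024746), an inducible HSP90, had 2209, 1809 and 1656 normalized counts in TS + SM, 2018, 1805 and 2490.3 in TS, 492, 449 and 516 in SM and 630.3, 523 and 519 in C. Both heated groups lay above both unheated groups without overlap, and the LFC of heat was 1.96 in SM medium and 1.92 in fresh medium, with an interaction of 0.04 (95% interval -0.45 to 0.54). *hsp70.3* (ENSDARG00000021924), an HSP70 chaperone, had 267, 257 and 242 normalized counts in TS + SM, 327, 311 and 304 in TS, 102, 86.9 and 78.3 in SM and 127, 106 and 79.3 in C (interaction -0.07, 95% interval -0.65 to 0.51). Here too the heated pools lay above the unheated pools, and all TS pools lay above the TS + SM pools. The third heat-changed chaperone of the list, *hspa8b*, had an interaction of -0.04 but a wider interval of -1.20 to 1.12. The small heat shock protein gene *hspb9*, outside the list and chosen here after its values were seen, was also called for averaged heat. Its heat LFC was 2.01 in SM medium and 1.71 in fresh medium (interaction 0.30, 95% interval -0.76 to 1.36). *hsc70*, a further HSP70 family gene that the study names and that did not pass *P*-adj for averaged heat, had 16.7, 24.5 and 63.03 normalized counts in TS + SM, 34.1, 52.8 and 54.98 in TS, 6.21, 25 and 11.03 in SM and 13.2, 7.78 and 8.39 in C. The heat LFC of *hsc70* was 1.27 in SM medium and 2.26 in fresh medium, and its interaction of -0.996 (95% interval -2.80 to 0.81) was the lowest among the chaperones. Its TS pools lay above all C pools, while TS + SM overlapped with SM. Over all 25 chaperones tested the median interaction was 0.05, with 16 above and 9 below 0 and 14 bounded within 1, and over 29 genes annotated to the heat response it was 0.02 with 17 bounded. The chaperone median was -0.09 without TS + SM pool 1, -0.04 without SM pool 3 and -0.05 without C pool 1, and that of the heat response list was -0.06, -0.04 and -0.02 without the same pools and -0.03 without TS pool 3.

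Of 20 glycolysis genes tested 9 were heat-changed, against 0.851% of all genes. All 9 were higher under heat, with a median LFC of 0.83 in SM medium and 0.85 in fresh medium, and 8 of them were bounded within 1, a bound wider than the heat response itself. Over all 20 genes the median interaction was 0.04, the lowest was -1.24 and 14 were bounded, and the median was -0.12 without TS + SM pool 1, -0.01 without TS pool 2 and -0.01 without SM pool 3. *ldha*, lactate dehydrogenase A, had 6793, 5651 and 4503 normalized counts in TS + SM, 5609.8, 5585 and 4663 in TS, 3696, 3478 and 2902 in SM and 3096, 3115 and 2705 in C (interaction -0.08, 95% interval -0.61 to 0.45). Heated pools lay above unheated pools, and the media overlapped at each temperature. *eno3*, a muscle enolase, gave 0.07 (95% interval -0.56 to 0.69). The actinodin gene *and1*, which encodes a protein of the fin-fold fibres, passed *P*-adj for averaged heat (0.00214) but not for averaged SM (0.80). It had 2473, 2353 and 1354 normalized counts in TS + SM, 1203, 1223 and 1420.4 in TS, 579, 774 and 923 in SM and 559, 492 and 443 in C. All SM pools lay above all C pools, while TS + SM pool 3 lay within the range of TS. The SM LFC was 0.68 under heat (unadjusted *P* = 0.0113) and 0.61 at 27 °C (unadjusted *P* = 0.0222), and the interaction was 0.08 (95% interval -0.63 to 0.78). *and2* gave -0.01 and *and3* -0.23.

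The developmental part of the heat response was measured with wider margins. Of 28 segmentation genes tested 10 were heat-changed, against 0.851% of all genes. All 10 were lower under heat, with a median LFC of -2.02 in SM medium and -2.01 in fresh medium. Gene by gene the fall was larger in SM medium in 8 of the 10, with a median signed departure of 0.42, 2 at unadjusted *P* ≤ 0.05 and 0 bounded within 1. Of the 8, *tbx16l*, a T-box gene chosen here after its values were seen, had 110, 90.3 and 102 normalized counts in TS + SM, 103, 137 and 125 in TS, 284, 177 and 230.5 in SM and 194, 177 and 146 in C (interaction -0.69, 95% interval -1.34 to -0.03, unadjusted *P* = 0.0407). In the remaining genes, *tbx6* and *her1*, the fall was smaller in SM medium. *tbx6*, a transcription factor of the presomitic mesoderm, had 74.8, 109.7 and 86.1 normalized counts in TS + SM, 90.01, 93.4 and 48.8 in TS, 386, 275 and 228 in SM and 376, 299 and 222 in C (interaction 0.24, 95% interval -0.68 to 1.16). *her1*, an oscillator gene of the segmentation clock, had 20.3, 25.8 and 29.1 normalized counts in TS + SM, 13.3, 16.3 and 13.1 in TS, 109, 82.1 and 77.2 in SM and 127, 118 and 69.9 in C, so that TS + SM lay between TS and the unheated groups without overlap (interaction 1.05, 95% interval 0.10 to 2.00, unadjusted *P* = 0.0334). Of 27 crystallins tested, the structural proteins of the lens, 18 were higher under heat, against 0.701% of all genes. The 18 had a median LFC of 1.39 in SM medium and 1.62 in fresh medium, and 11 of them lay below additivity.

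*cryba1b*, a beta-crystallin, was among the best measured of them, with 2046, 1728 and 1817 normalized counts in TS + SM, 1719, 1593 and 1396 in TS, 849, 1071 and 1064 in SM and 593, 643 and 649 in C. All 4 groups were ordered TS + SM, TS, SM, C without overlap between neighbours. The combined treatment was highest although its mean was 0.75 times the additive expectation (interaction -0.42, 95% interval -0.84 to 0.01, unadjusted *P* = 0.0558). The study names *cryba1b* as raised in both single treatments in these same libraries, and such a choice favours a value below additivity. Heat changed 6 of 16 genes of muscle calcium handling and 5 of 36 sarcomere genes, against 0.851% of all genes tested. The 5 sarcomere genes had a median LFC of 1.02 in SM medium and 1.33 in fresh medium. The 6 genes of muscle calcium handling had 1.65 and 1.26. *atp2a1l*, a calcium pump of this set, had 159, 123 and 252 normalized counts in TS + SM, 156, 142 and 197 in TS, 15.5, 22.6 and 29.8 in SM and 22.3, 11.7 and 12.1 in C (interaction -0.47, 95% interval -1.57 to 0.63). In whole embryos fewer cells of a type and less RNA per cell cannot be told apart.

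For 2 tandem genes the interaction could not be read. *ggact.2*, a gamma-glutamylamine cyclotransferase, had 0, 0 and 0 normalized counts in TS + SM and 0.947, 0 and 0.687 in TS, against 96.2, 114 and 91.5 in SM and 42.6, 38.9 and 21.4 in C. Heat brought it to the detection limit in both media, at least 32.5-fold lower in TS + SM than in SM and at least 11.5-fold lower in TS than in C, and with both heated groups at the limit their ratio is unknown. *ggact.3* had 3.59, 1.29 and 1.21 normalized counts in TS + SM, 0, 0 and 0.687 in TS, 57.4, 65.5 and 45.2 in SM and 23.3, 15.6 and 34.5 in C. At 27 °C every SM pool was above every C pool for both genes, and near-identical copies may share reads.

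**Figure D3:**
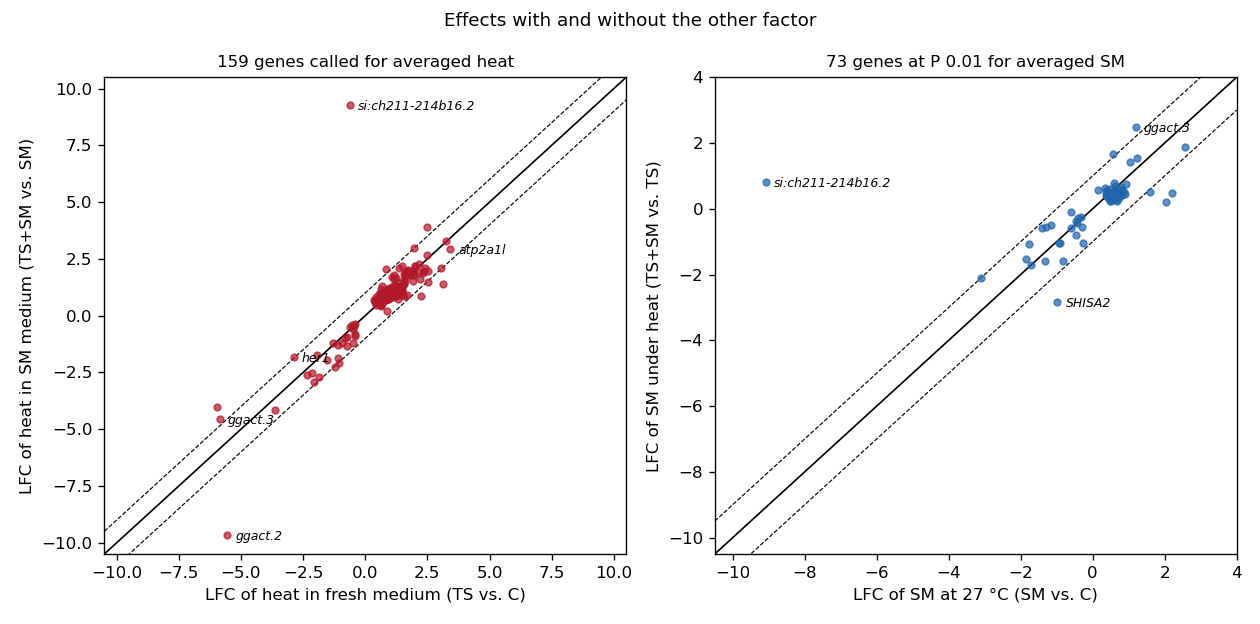
LFC of each treatment in the presence of the other (vertical axes) against its LFC alone (horizontal axes) for the 159 genes called for averaged heat and the 73 genes taken for averaged SM, with the solid line of equality marking additivity and dashed lines a departure of 1 on the log2 scale. Of the heat genes 158 of 159 have the same direction in both media, which choosing them by the average favours. The SM genes have a median of 0.47 under heat against 0.64 at 27 °C.

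A further reading used comparisons that share no libraries. Their tests take the spread of each gene from the same fit of all 12 libraries, so the *P* values of the 2 comparisons are not independent. All 18 genes at *P*-adj ≤ 0.05 in TS against C had the same direction and an unadjusted *P* ≤ 0.05 in TS + SM against SM, where 6.01% of all genes reached that *P*, with median LFCs of 1.87 in TS + SM against SM and 1.94 in TS against C. Of the 20 genes called in TS + SM against SM, 19 did so in TS against C, where 4.45% of all genes did. For SM no gene passed *P*-adj, so genes at unadjusted *P* ≤ 0.01 were followed. Of 47 such genes in SM against C, 33 had the same direction in TS + SM against TS, 4 of them at unadjusted *P* ≤ 0.05 (1.45% of all genes in either direction) and 1 more in the opposite direction, and their median LFC was 0.20 in TS + SM against TS and 0.92 in SM against C. Of 29 genes in TS + SM against TS, 15 had the same direction in SM against C, with a median of 1.02 where they were chosen and 0.01 where they were read. The LFC of genes chosen by their own *P* is inflated in the comparison that chose them, and the readings of heat and of SM also differ in threshold.

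A further set was the 73 genes with unadjusted *P* ≤ 0.01 for SM averaged over both temperatures (51 higher, 22 lower). Choosing them by this average avoids that inflation on the interaction axis only where the groups have equal spread. *si:ch211-214b16.2* entered this set too through its 0 counts in SM. The median LFC of the 73 genes, signed by direction, was 0.47 under heat (TS + SM against TS) and 0.64 at 27 °C (SM against C). In 72 of 73 the direction was the same at both temperatures, which the averaging favours. The signed interaction had a median of -0.15 with quartiles of -0.33 and 0.08, and 52 genes lay below 0 and 21 above. This tendency toward a smaller SM response under heat depended on the libraries used, since the genes taken and their median changed with each one left out. The median was -0.29 without C pool 2, -0.28 without SM pool 2, -0.26 without SM pool 1, -0.19 without C pool 1, -0.14 without C pool 3, -0.03 without TS + SM pool 2 and -0.0011 without TS + SM pool 1. It was 0.13 without TS + SM pool 3, 0.09 without TS pool 1, 0.31 without TS pool 2, 0.04 without TS pool 3 and 0.01 without SM pool 3. Whether SM acts less under heat was thus not resolved by these pools.

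The genes given next were named by the study, and of them only *krt97* is among the 73 genes taken for averaged SM. The study chose them by comparisons with C in these same libraries. Choosing genes for a rise in SM, or in both single treatments, favours a value below additivity. Choosing them for a rise in TS + SM only, as with *acta2*, favours a value above it. *tcima* was called for averaged heat. *prg4a*, which encodes a mucus glycoprotein (proteoglycan 4), had 65.2, 79.99 and 49.7 normalized counts in TS + SM, 73.9, 40.6 and 40.5 in TS, 55.9, 77.4 and 139 in SM and 42.6, 36.95 and 37.3 in C (interaction -0.90, 95% interval -2.05 to 0.26). SM pools lay above all C pools, and TS + SM and TS pools overlapped. The keratin gene *krt97* had 8165, 7168 and 4594 normalized counts in TS + SM, 5849.5, 5529.5 and 4375 in TS, 6926, 5736 and 6805 in SM and 3995, 4233 and 3551 in C (interaction -0.39, 95% interval -1.02 to 0.25). *tcima*, a transcriptional and immune response regulator, was higher than in C in every pool of all 3 treatments, with 278, 245 and 235 normalized counts in TS + SM, 242, 253 and 295 in TS, 247, 204 and 205 in SM and 133, 146 and 150.1 in C. The combined treatment did not exceed TS alone, at 0.628 of the additive expectation (interaction -0.67, 95% interval -1.15 to -0.19, unadjusted *P* = 0.0101). *acta2*, smooth muscle actin, was the reverse: it had 169, 139 and 136 normalized counts in TS + SM, 76.7, 100.2 and 78.3 in TS, 80.7, 59.5 and 88.2 in SM and 79.04, 68.1 and 55.95 in C. TS + SM stood above all other pools, at 1.55 times the additive expectation (interaction 0.63, 95% interval -0.10 to 1.36, unadjusted *P* = 0.0847).

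By function, the departures were described over 30 gene lists, none of which had a member at *P*-adj ≤ 0.05. Of 716 members tested, 1 lay above and 3 below additivity at unadjusted *P* ≤ 0.01. Over all 18688 genes 12 (0.0642%) lay above and 11 (0.0589%) below at that *P*. The 4 list members (*si:ch211-214b16.2*, *best1*, *fthl28* and *chs1*) are all among the genes named by the study, which were chosen on these same libraries. List medians are given beside the median of -0.000939 over all genes, of which 9306 of 18688 lay above 0. Medians lay above 0 in 12 lists and below in 18, and in 7 lists the sign held under all of the 21 alternative analyses.

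The furthest below additivity was the innate immune list, with a median interaction of -0.54 and 19 of 22 members below 0. Per-library levels of the list, the mean log2 difference of its members from C, were 0.18, 0.25 and 0.30 in TS + SM, 0.30, 0.33 and 0.68 in TS, 0.29, 0.30 and 0.34 in SM, and -0.05, -0.14 and 0.19 in C. The 3 treatments overlapped with each other, C pool 3 reached TS + SM pool 1, and the TS + SM mean of 0.24 lay 0.50 (SE 0.16) below the additive sum of 0.75. Besides *fthl28* the members included the leukocyte actin-binding protein *coro1a* (-0.92), the Toll-like receptor *tlr18* (-0.93), the inflammasome adaptor *pycard* (-0.45) with the caspases *caspa* (-0.76) and *caspb* (-1.02), and the transcription factor subunit *nfkb1* (-1.06), while *il1b* (0.01), *MYD88* (-0.03) and *nfkbiab* (-0.00334) lay near 0. Of the 22 members 3 had an unadjusted *P* ≤ 0.05, all below additivity and *fthl28* and *tcima* among them, against 0.915% of all genes. The list holds 3 genes that the study named (*fthl28*, *tlr18* and *tcima*), and the other 19 had a median of -0.45 with 16 below 0. The levels and the departure of 0.50 include these 3 genes, whose choice favours a value below additivity. The list does not hold the likely NOD2 ortholog *si:ch211-214b16.2* or *si:ch211-214b16.4*. These genes lay on the opposite side, at least 4.97 and at least 3.70 above additivity on the log2 scale when taken at group means. TS pool 3 was the highest pool of this list, and without it the median was -0.10.

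The skin lists lay below additivity with smaller medians. Keratins and other periderm genes had a median of -0.21, with 36 of 39 below 0 (31 of 34 without the 5 genes that the study named). Their level was 0.56, 0.22 and -0.01 in TS + SM, 0.16, 0.04 and 0.10 in TS, 0.57, 0.31 and 0.44 in SM, and 0.06, -0.11 and 0.05 in C, so that SM pools were above all C and TS pools and TS + SM pools spread over both ranges. *krt17* had 9652, 6097 and 4070 normalized counts in TS + SM, 6410.4, 5681 and 4059 in TS, 16125, 9926 and 16516 in SM and 7063, 6624 and 8126 in C (interaction -0.67, 95% interval -1.60 to 0.26). The median of the list was -0.03 without TS + SM pool 3, -0.07 without SM pool 1, -0.13 without C pool 2, -0.14 without TS pool 3 and -0.40 without TS + SM pool 1. Ionocyte genes had a median of -0.38 with 8 of 10 below 0, led by the transcription factor *foxi3a* with 123, 98.05 and 92.1 normalized counts in TS + SM, 122, 96.2 and 161 in TS, 209.5, 158 and 185 in SM and 103, 65.1 and 186 in C (interaction -0.92, 95% interval -1.96 to 0.11). TS pool 3 and C pool 3 were the highest pools of their groups for *foxi3a*, and the list's median was -0.14 without TS pool 3 and -0.23 without TS + SM pool 3.

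**Figure D4:**
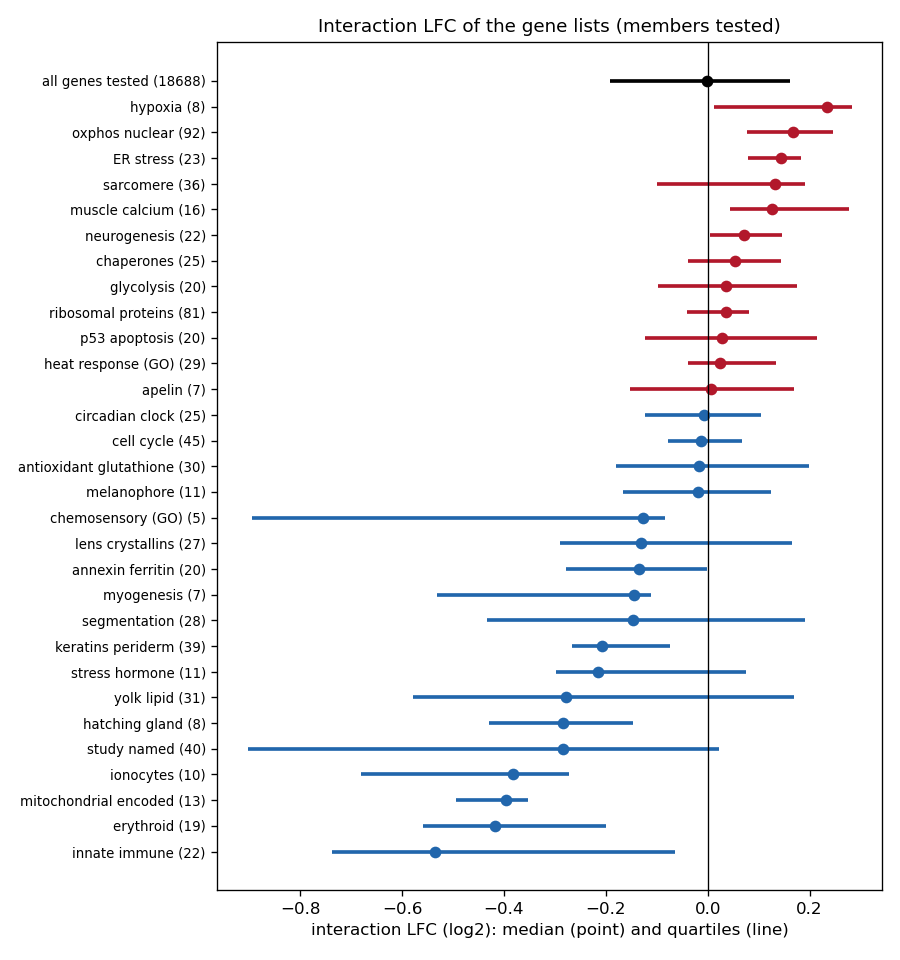
Median interaction LFC (horizontal axis, log2) of each gene list (points) with its quartiles (lines) and the number of members tested in parentheses, all genes tested being shown at the top. The innate immune median is at -0.54 and that of nuclear-encoded oxidative phosphorylation at 0.17, against -0.000939 over all genes.

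In several lists 1 library set the direction. Erythroid genes had a median of -0.42 with 18 of 19 below 0, but TS pool 3 stood at 0.81 on the level of the list against -0.04 and -0.07 in the other TS pools, and without it the median was 0.03. The 13 protein genes encoded in the mitochondrial genome were all below 0, with a median of -0.40, but SM pool 3 stood at 1.38 against 0.02 and 0.22 in the other SM pools, and without it the median was 0.15. Nuclear-encoded subunits of oxidative phosphorylation had a median of 0.17 with 81 of 92 above 0, but TS + SM pool 1 stood at 0.63 against 0.01 and -0.28, and the median was -0.14 without it. Yolk and lipid transport genes, with a median of -0.28, gave 0.15 without TS pool 3. TS pool 3 and TS + SM pool 1 also lay at the opposite ends of the first principal component.

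On the other side, genes of the endoplasmic reticulum stress response had a median of 0.14 with 18 of 23 above 0, and it stayed between 0.04 and 0.23 under all 21 alternatives. Its levels were -0.04, -0.06 and -0.12 in TS + SM, -0.10, -0.05 and 0.10 in TS, -0.10, -0.08 and -0.39 in SM, and 0.06, -0.01 and -0.05 in C. The SM pools lay below all C pools, the heated groups overlapped with both unheated groups, and the departure of 0.14 was about as large as its SE of 0.12. The member with the smallest *P* was *atf4b*, a transcription factor of the integrated stress response, with 2583, 3042 and 3376 normalized counts in TS + SM, 3078, 3008 and 2712 in TS, 2777, 3268 and 2436 in SM and 3681, 3613 and 3528 in C (interaction 0.38, 95% interval -0.07 to 0.84). C pools were above all others. Lists near 0 were the cell cycle (median -0.01 over 45 genes, 37 of them bounded within 1), the circadian clock (-0.00745 over 25, with 12 bounded) and neurogenesis (0.07 over 22, with 19 bounded). Without TS pool 3 these medians were 0.11, 0.05 and -0.07. Ribosomal proteins had a median of 0.04 over 81 genes, of which 12 were bounded, and it was -0.32 without TS + SM pool 1, -0.25 without TS pool 3, -0.13 without C pool 1, -0.09 without SM pool 2 and -0.25 with limma-voom.

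In the cell cycle list *RRM2*, a subunit of ribonucleotide reductase, was the exception. It had 2292, 1792 and 2116 normalized counts in TS + SM, 619.6, 2209 and 1075 in TS, 1672, 563 and 1029.9 in SM and 1705, 2949 and 2203 in C. Pools of the same group differed several-fold in TS and SM, and all groups overlapped with a neighbour (interaction 1.74, 95% interval 0.38 to 3.11, unadjusted *P* = 0.0164). Of the chemosensory genes 5 of 23 were expressed enough to be tested, all 5 below 0 with a median of -0.13. The member with the smallest *P*, *trpa1b*, had an interaction of -0.90 (95% interval -1.97 to 0.17). The C pools of *ora3* were at the detection limit. Taken at group means, its departure was at most -0.27 on the log2 scale, but the 95% interval of its fitted LFC was -3.79 to 0.36. *olfcb1*, an olfactory C-family receptor that the study names and that is not in this list, had 9.57, 16.8 and 15.8 normalized counts in TS + SM, 28.4, 23.02 and 18.6 in TS, 86.9, 58.3 and 56.2 in SM and 58.8, 56.4 and 49.4 in C. Both heated groups were lower than both unheated groups and TS + SM lower than TS without overlap (interaction -1.04, unadjusted *P* = 0.0492). A list of genes that the study names, chosen on these libraries, had a median of -0.29 with 29 of 40 below 0. That list is not exhaustive, and *CU633479.2*, which the study also names, was not among the 40 (interaction 1.67).

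**Figure D5:**
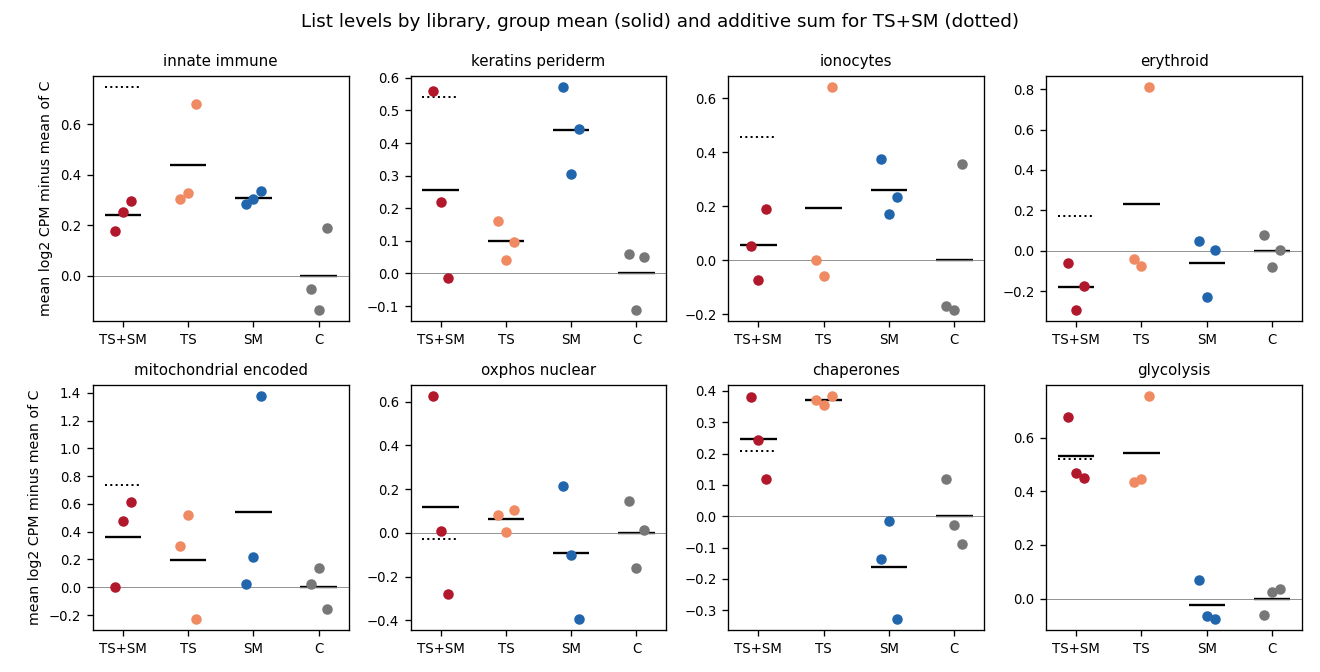
Per-library level of 8 gene lists (vertical axes, mean log2 CPM of the members minus the mean of C) in TS + SM, TS, SM and C, left to right, with solid lines for group means and dotted lines for the additive sum of the single treatments. For the innate immune list, which includes 3 genes that the study named, the TS + SM mean of 0.24 lies below the additive sum of 0.75.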

How the data were processed

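The authors pooled 20 embryos per library, made stranded mRNA libraries, trimmed reads with fastp 0.23.1 without removing duplicates and aligned them to GRCz11 with STAR 2.6.1, and they deposited the STAR read counts per gene and strand for 3 biological replicates in each of 4 groups. Column 4 (reverse strand) was used without its 4 summary lines. The deposited counts were fitted here with edgeR 4.0.16 in R 4.3.3 (TMM, filterByExpr by group, robust quasi-likelihood, 1 factor of 4 groups, 12 libraries), which left 18688 of 32520 genes with Benjamini–Hochberg adjustment over all of them. Normalized counts are counts scaled to the mean effective library size of 26656800. SEs are the absolute LFC divided by the root of *F*, or Wald SEs from the quasi-likelihood weights where *F* was close to 0. The 95% intervals use *t* with the total degrees of freedom (median 11.9). The detection limit is 3 counts in every library of a group, and bounds set that group to 3 counts per library. This limit covers counting error only, and the bounds rest on group means and leave out the spread between pools. Symbols came from the study's table (158 genes) and a name table (29046), and 3316 genes had none. Totals were 18764434 to 60239167 reads, with 9.42% to 12.2% of reads in no gene, 4.51% to 10.4% multimapping, 3.14% to 4.63% unmapped and 0.799% to 1.03% ambiguous, all left out of library sizes.

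Named genes were up to 10 per direction by interaction *P* with a mean of 10 or more normalized counts, the member of each list with the smallest *P* and with the highest count, the genes named by the study, and the largest averaged heat and SM responses. The remaining genes at unadjusted *P* ≤ 0.01, the genes beside that threshold and the list members given by their LFC alone were added after their values were seen. Members and gene lists were chosen with earlier results of these data known. The same fit was also run on simulated counts whose spread between libraries was set by expression level alone, unlike these pools. No result here rests on that run. Alternatives were DESeq2 1.42.0, its size factors, limma-voom 3.58.1 with sample weights, no filter, a filter at a mean of 50, unstranded counts (column 2), thinning to 18764434 reads, a replicate block and leaving out each library. Leaving out TS + SM pool 1, TS pool 3 and C pool 3 together was added after seeing the data. Genes chosen for SM were taken at unadjusted *P* ≤ 0.01 because fewer than 10 passed *P*-adj. No genome of the files' build was used, so no positions are given.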

Additional observations from a re-analysis of the deposited data

How the results depend on the processing

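The count of 0 genes at *P*-adj ≤ 0.05 was also 0 in all alternatives except DESeq2, which gave 2. The 23 genes at unadjusted *P* ≤ 0.01 numbered 50 with DESeq2, 41 without a filter, 15 with the stricter filter, 317 with limma-voom, 104 without the 3 libraries farthest from 0 on the first principal component (TS + SM pool 1, TS pool 3 and C pool 3, chosen after seeing the data) and 11 to 52 with 1 library left out. With the replicate number as a block the count was 28, and 202 genes were called for averaged heat and 146 taken for averaged SM. Same-numbered pools correlated above 0.1 throughout in only 2 of the 6 pairs of groups, TS with C (0.29 to 0.79) and TS + SM with C (0.11 to 0.62). In TS with SM the correlations were -0.44 to 0.17, and over all pairs 11 of 18 exceeded 0.1. The numbers were therefore not taken as pairing the pools, although some same-numbered pools were alike, and the block is given only here. The number of genes bounded within 1 was 7225 to 8179 with 1 library left out, 9332 with the replicate block and 11280 with limma-voom, against 8587. The median departure of the heat genes was -0.0165 to 0.22 with 1 library left out. That of the SM genes was 0.081 without the 3 libraries and -0.29 to 0.31 with 1 left out. Both sets of genes were chosen anew in each fit. All 23 genes kept the sign of their interaction in every alternative in which they were tested, 11 of them being tested under the stricter filter. Each alternative reuses most of the libraries that chose these genes, which favours a kept sign. Fewer kept their *P*: with 1 library left out, 9 (without TS pool 1 or C pool 1) to 17 (without TS pool 3 or SM pool 1) of the 23 stayed at unadjusted *P* ≤ 0.01. Of the 30 lists 19 kept the sign of their median with limma-voom, and 17 to 29 with 1 library left out (17 without TS pool 3, 19 without C pool 1). Over all named genes and alternatives 111 of 2390 recomputed interaction LFCs moved by more than 1 SD between pools, and 35 of 630 list medians did. The causes of these changes were not tested. At this depth no gene under 30 normalized counts was bounded within 1, and thinning every library to the smallest total gave 22 genes at unadjusted *P* ≤ 0.01 and 8387 bounded within 1.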

Other observations

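Further gene groups that the main text does not describe lay on both sides of additivity. Myogenic regulators, the transcription factors and fusion proteins of muscle formation, had a median interaction LFC of -0.14 with 6 of 7 members below 0, and 0.13 without TS pool 3. *mymx*, which encodes a myoblast fusion protein, had 17.3, 12.9 and 24.2 normalized counts in TS + SM, 22.7, 36.6 and 69.4 in TS, 69.8, 61.9 and 34.2 in SM and 81.1, 79.7 and 65.3 in C. Its TS + SM pools were the lowest apart from TS pool 1 and the C pools among the highest, and the interaction was -0.80 (95% interval -2.12 to 0.53). *myog*, a muscle transcription factor that passed *P*-adj for averaged heat, had 438, 468 and 421 normalized counts in TS + SM, 621, 654 and 694 in TS, 1293, 979.5 and 751 in SM and 1521, 1097 and 1107 in C, with an interaction of -0.27 (95% interval -0.87 to 0.33). All TS + SM pools lay below all TS pools, and both lay below SM and C. Genes of the hypoxia response had a median of 0.23 with 6 of 8 above 0, and -0.12 without SM pool 3. The erythropoietin gene *epoa* had 123, 115 and 125 normalized counts in TS + SM, 90.95, 108 and 85.2 in TS, 93.1, 71.4 and 58.4 in SM and 71.9, 91.4 and 74.6 in C (interaction 0.45, 95% interval -0.26 to 1.16). TS + SM pools of *epoa* lay above all others.

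Among antioxidant and glutathione genes the median was -0.02 over 30 genes, and among melanophore genes -0.02 over 11, with *pmela*, a pigment-organelle protein, at -0.08 (95% interval -0.62 to 0.45). The glucocorticoid and corticotropin list had a median of -0.22 over 11 genes and 0.04 without TS pool 3, and the glucocorticoid receptor *NR3C1* was at -0.17 (95% interval -0.67 to 0.32). Genes of p53 signalling and apoptosis had a median of 0.03 over 20, with 10 on each side of 0. Annexins and ferritins had a median of -0.13 with 15 of 20 below 0, while the abundant ferritin *fth1a* was at 0.09 (95% interval -0.70 to 0.89). The hatching gland list had a median of -0.28 over 8 genes and 0.02 without TS pool 3, and its protease gene *he1.3* had 46.7, 78.7 and 161 normalized counts in TS + SM, 102, 138 and 237 in TS, 360.1, 264 and 169 in SM and 180.4, 139 and 442 in C. The apelin list had a median of 0.00612 over 7 genes, with a different sign under 10 of 21 alternatives.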
